A study of Mus musculus with 2 samples.

Results

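Neuroblast nuclei are the nuclei of newborn neurons, here nuclei from the hippocampus of mice that carried the genes of immature, migrating neurons. Members were chosen by their measured UMIs. A nucleus was a member when at least 3 of 5 marker genes, Igfbpl1, Draxin, Sox11, Sox4 and Dcx, each had at least 1 UMI (a unique molecular identifier, which counts 1 captured RNA molecule once). Members also had no UMI of Pdgfra, a receptor of oligodendrocyte precursors, and at most 1 UMI of Mog and Mag, both myelin genes, as a sum. They were looked for among nuclei with at least 500 genes, at least 800 and under 6000 UMIs, and under 5% of UMIs from mitochondrial genes. Of 17966 such nuclei, 52 were members, and the deposited tables held 29314 barcodes in all. The rule has no clause against mature neurons.

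The 2 libraries were single-nucleus RNA libraries, both from mice with a floxed Bcas2 gene (Bcas2F/F), in which Cre recombinase can remove part of Bcas2. One library came from mice given AAV2/9-Syn-cre, a viral vector in which the synapsin promoter drives Cre, and its genotype label is Bcas2 knockdown. The other came from mice given an AAV vehicle, and its genotype label is WT although its title gives Bcas2F/F. It is called the control library here. Bcas2 encodes a subunit of the Prp19 complex, which takes part in pre-mRNA splicing. The synapsin promoter is active in neurons and weak or silent in glia and stem cells, so the labels do not say that a newborn neuron had carried active Cre. Both libraries were made from nuclei sorted after staining with propidium iodide, with the 10x Genomics 3′ V3 kit. The number, age and sex of the mice behind each library are not in the labels used here, and 1 library a group leaves no replicate check. No p-value is therefore given, and every interval below is a 95% interval that covers counting error only.

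New neurons are made in adult rodents in the subgranular zone of the dentate gyrus and in the subventricular zone beside the lateral ventricle. In the dentate gyrus, radial glia-like stem cells give rise to intermediate progenitors that carry Eomes (Tbr2), and these give rise to neuroblasts that carry Dcx and mature into glutamatergic granule cells under Neurod1 and Prox1. Neuroblasts of the subventricular zone carry the Dlx genes, Sp8 and Meis2, migrate as chains to the olfactory bulb and become GABAergic interneurons. Igfbpl1 is a secreted protein of newborn neurons, Draxin is a secreted guidance cue of axons, Sox11 and Sox4 are transcription factors of early neuronal differentiation, and Dcx (doublecortin) binds the microtubules of migrating neurons.

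The knockdown-labelled library had 16693 barcodes and the control library 12621, with 6594 and 11372 nuclei in the range searched. Median depth in that range was alike, at 2453 and 2450 UMIs. The libraries shared 56 barcodes, 1 of which was a control member. Bcas2 (ENSMUSG00000005687), the targeted gene, had 1 UMI in the control members and 3 in the knockdown-labelled members, too few to compare. CPM are UMIs of a gene divided by all UMIs of the set, scaled to parts in 1000000. In the nuclei of the same depth range that were not members, Bcas2 was at 45.0 CPM in the knockdown-labelled library. It was at 29.9 CPM in the control library, so the direction was opposite to the label. These nuclei differed in cell make-up between the libraries. Their mature oligodendrocyte genes summed to 3927 CPM in the knockdown-labelled and 14436.6 CPM in the control library. The part of cell make-up in the Bcas2 values was not tested. The labels do not say which part of Bcas2 is floxed, so a 3′ tag outside the deleted part would check nothing. Every direction between the libraries below is between the library labelled Bcas2 knockdown and the control library.

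Nearly all control members, but a minority of knockdown-labelled members, lay among neuroblast-like nuclei. When the nuclei of both libraries were clustered, 1 cluster of 104 nuclei had Igfbpl1, Dlx6os1, Top2a, Egfr and Draxin among its leading genes. It was picked as the cluster with most members and was neuroblast-like by its markers. These markers include the 5 rule genes, so its name and its share of members are in part set by the rule. It held 32 of the 33 control members (97.0%) and 7 of the 19 knockdown-labelled members (36.8%). It also held 55 control and 10 knockdown-labelled nuclei that did not meet the rule. The other 12 knockdown-labelled members lay in 5 clusters led by genes of other neurons: 5 in a cluster led by Ankfn1, Prdm16 and Gad2, 2 in a cluster led by Baiap3 and Chrm2, 2 in a cluster led by Rarb, Foxp2 and Rgs9, 2 in a cluster led by Ebf2 and Ebf3, and 1 in a cluster led by Vwc2l. Rarb, Foxp2 and Rgs9 are genes of striatal medium spiny neurons, and Gad2 makes the transmitter GABA. These 12 nuclei had a median of 5463 UMIs, against 2847 in the 7 knockdown-labelled members and 2745 in the 32 control members of the neuroblast-like cluster. They lay near the upper limit of the range searched. With no upper limit the rule took 100 knockdown-labelled nuclei, 58 of them in a single coarser cluster, and 39 control nuclei. For this reason many values, though not all, are also given for the 7 and the 32 members in the neuroblast-like cluster. That restriction was chosen after the data were seen.

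**Figure D1:**
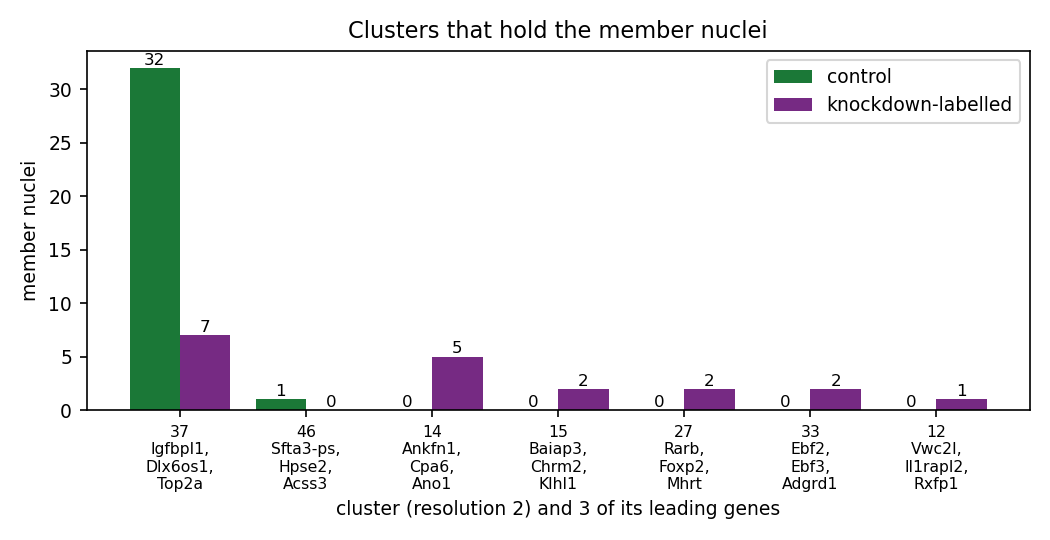
Number of member nuclei (vertical axis) in each fine cluster (horizontal axis, cluster number), for the control and the knockdown-labelled library. Cluster 37, the neuroblast-like one, held 32 of 33 control members and 7 of 19 knockdown-labelled members, and the other 12 were spread over 5 clusters.

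A doublet caller (Scrublet) marked 6 of the 7 knockdown-labelled members in the neuroblast-like cluster, none of the 12 outside it and no control member. In the control library its automatic threshold marked 0.016% of nuclei and had not worked, so there the nuclei with the highest scores were marked instead. With no upper limit on UMIs, 7.79% of knockdown-labelled and 10.6% of control nuclei were marked. In the neuroblast-like cluster 11 of 17 knockdown-labelled and 1 of 87 control nuclei were marked. Marked nuclei were kept in the values below. Without them, the clustered knockdown-labelled values would rest on 1 nucleus. Whether these 6 nuclei hold RNA of 2 cells was not tested. Of the knockdown-labelled members, 3 held UMIs of both Xist, which is transcribed in female cells, and Y-linked genes, 1 of them in the neuroblast-like cluster. No control member held both.

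The choice of members fixes the values of the 5 rule genes, which are a description with no test. Igfbpl1 (ENSMUSG00000035551) had 78 UMIs in 25 of the 33 control members, with a lowest, median and highest count of 0, 2 and 7. It had 37 UMIs in 15 of the 19 knockdown-labelled members, at 0, 1 and 8, and 19 of these were in the 7 nuclei of the neuroblast-like cluster. In CPM this was 810 (640 to 1010) in the control members and 446 (314 to 614) in the knockdown-labelled members. Other nuclei of the 2 libraries stood at 6.04 and 8.35 CPM. The 7 clustered nuclei, at 929 CPM (559 to 1450), overlapped the control members. Dcx (ENSMUSG00000031285) had 46 UMIs in 29 control members and 22 UMIs in 17 knockdown-labelled members. Sox11 (ENSMUSG00000063632) had 47 UMIs in 24 control members and 21 UMIs in 15 knockdown-labelled members.

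Draxin and Sox4 were the rule genes that fewest knockdown-labelled members carried. Draxin (ENSMUSG00000029005) had 31 UMIs in 18 control members and 4 UMIs in 4 knockdown-labelled members, 3 of them in the neuroblast-like cluster. Sox4 (ENSMUSG00000076431) had 34 UMIs in 22 control members and 7 UMIs in 7 knockdown-labelled members, 2 of them in that cluster. How many of the 5 genes a nucleus carried also differed. Of the control members, 19 had 3 of the genes, 9 had 4 and 5 had all 5, and of the knockdown-labelled members 18 had 3, 1 had 4 and none had 5. Just outside the rule, with exactly 2 of the 5 genes, were 36 control nuclei, 25 of them in the neuroblast-like cluster, and 78 knockdown-labelled nuclei, 4 of them in it. The clauses on Pdgfra, Mog and Mag removed 12 control and 2 knockdown-labelled nuclei that had at least 3 of the genes.

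**Figure D2:**
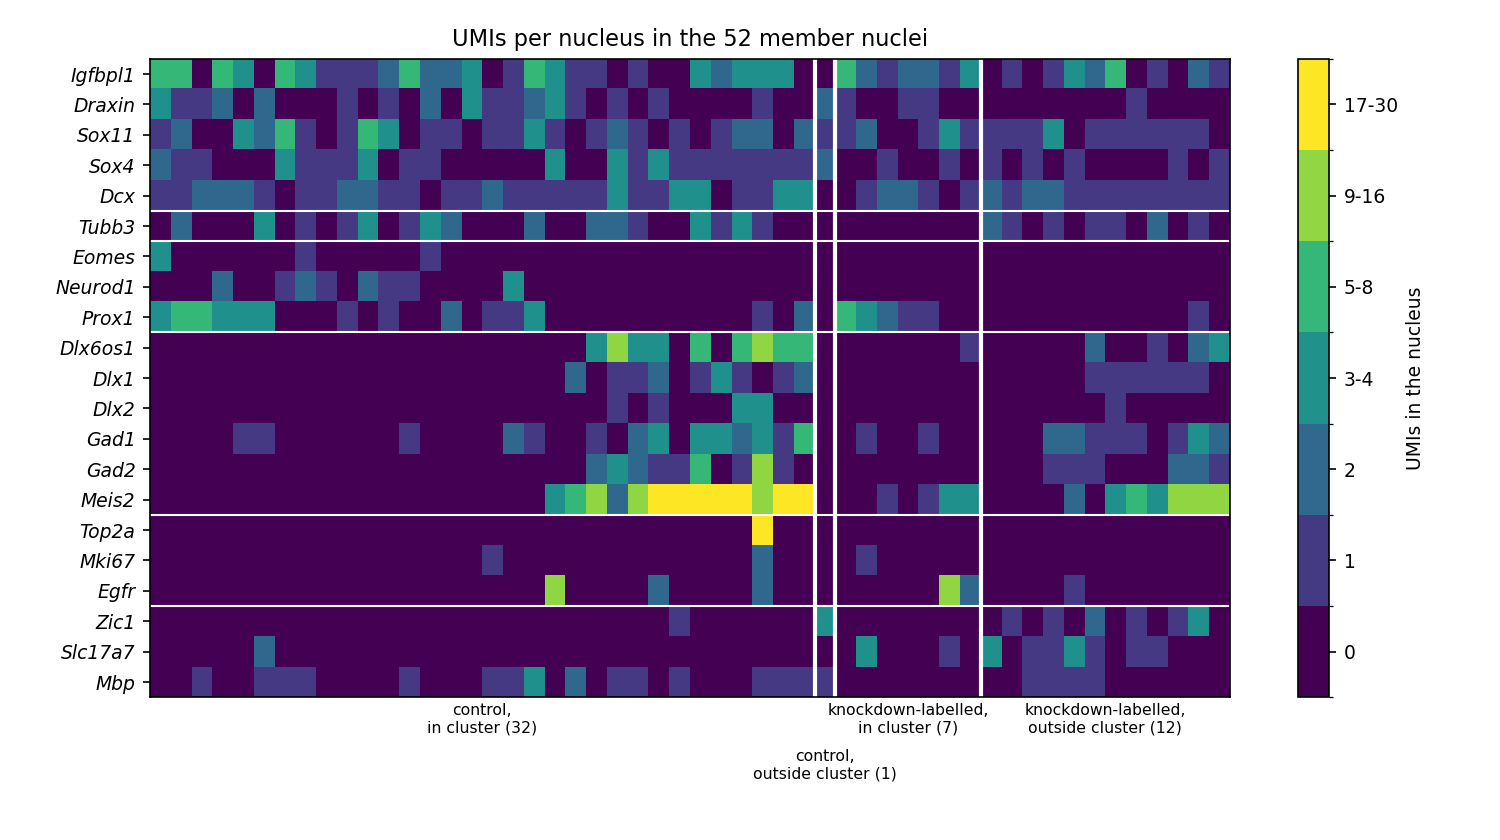
UMIs of the rule genes, lineage genes, cell cycle genes and genes of other cells (vertical axis) in each of the 52 members (horizontal axis), with colour for the UMI count. Within each set, members are ordered by their GABAergic list UMIs less their granule list UMIs. In the control members of the neuroblast-like cluster, Eomes, Neurod1 and Prox1 lie mostly in the nuclei of the granule side. Meis2 lies in all 13 nuclei of the GABAergic side and Dlx6os1 in 9 of them. The 12 knockdown-labelled members outside the cluster carry few UMIs of Draxin.

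Members were 33 of 11372 control nuclei, or 0.290% (exact binomial interval 0.200 to 0.407), and 19 of 6594 knockdown-labelled nuclei, or 0.288% (0.174 to 0.450). This likeness depended on the rule. With 2 of the 5 genes required the shares were 0.607% in the control and 1.47% in the knockdown-labelled library, with 4 of 5 they were 0.123% and 0.0152%, and with no upper limit on UMIs 0.311% and 0.745%. In the neuroblast-like cluster alone they were 0.281% and 0.106%. The libraries differed in the cells around the members. Granule-like nuclei of the dentate gyrus, counted with no upper limit on UMIs, numbered 594 in the control library and 2051 in the knockdown-labelled library. Members of the neuroblast-like cluster numbered 5.39 per 100 granule-like nuclei in the first and 0.341 in the second. The larger granule-like cluster had median depths of 7071 and 6271 UMIs, beyond the range searched. Without the upper limit, the members in the neuroblast-like cluster were the same 32 and 7. With 1 library a group, a difference between mice, dissections or sorts cannot be told apart from one between treatments.

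Control members carried transcripts of a GABAergic and of a granule neuron lineage, mostly in different nuclei. Dlx6os1, a long noncoding RNA transcribed beside the Dlx5 and Dlx6 genes, had 62 UMIs in 9 of 33 control members (27.3%), against 0.74% of other control nuclei. Eomes had 5 UMIs in 3 of the 33 (9.09%, interval 1.92 to 24.3), against 0.09% of other control nuclei. No member of either library carried both. Median depth was 2764 UMIs in the control members and 2448 UMIs in the other control nuclei. In the knockdown-labelled library Dlx6os1 was found in 5 of 19 members (26.3%, interval 9.15 to 51.2), but 6.94% of its other nuclei carried it too, and 4 of the 5 members lay outside the neuroblast-like cluster. Median depth there was 4697 UMIs in the members and 2447 UMIs in the other nuclei, and its part in this share was not tested. Eomes was found in 0 of the 19, which allows a share of up to 17.6%.

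A wider view came from summing 2 gene lists in each member: a list of GABAergic neuroblast genes (Dlx1, Dlx2, Dlx6os1, Sp8, Sp9, Gad1, Gad2, Meis2 and others) and a list of immature granule neuron genes (Prox1, Neurod1, Eomes and others). A member was put on the side whose list had more UMIs, a split chosen after the data were seen. This split gives a side to every nucleus with unequal sums, however few its UMIs. Of the 32 control members in the neuroblast-like cluster, 13 fell on the GABAergic side and 19 on the granule side. Of them, 6 were placed by 1 UMI, all on the granule side. Nuclei on the granule side had 0 to 3 UMIs of the GABAergic list, and 1 to 9 of their own. The nuclei on the GABAergic side had 0 to 2 UMIs of the granule list, and up to 86 of their own. Of the 7 knockdown-labelled members in that cluster, 2 fell on the GABAergic side and 5 on the granule side, 2 of these 5 by 1 UMI. Among the 12 outside it, 9 fell on the GABAergic side, 1 on the granule side and 2 had equal sums.

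**Figure D3:**
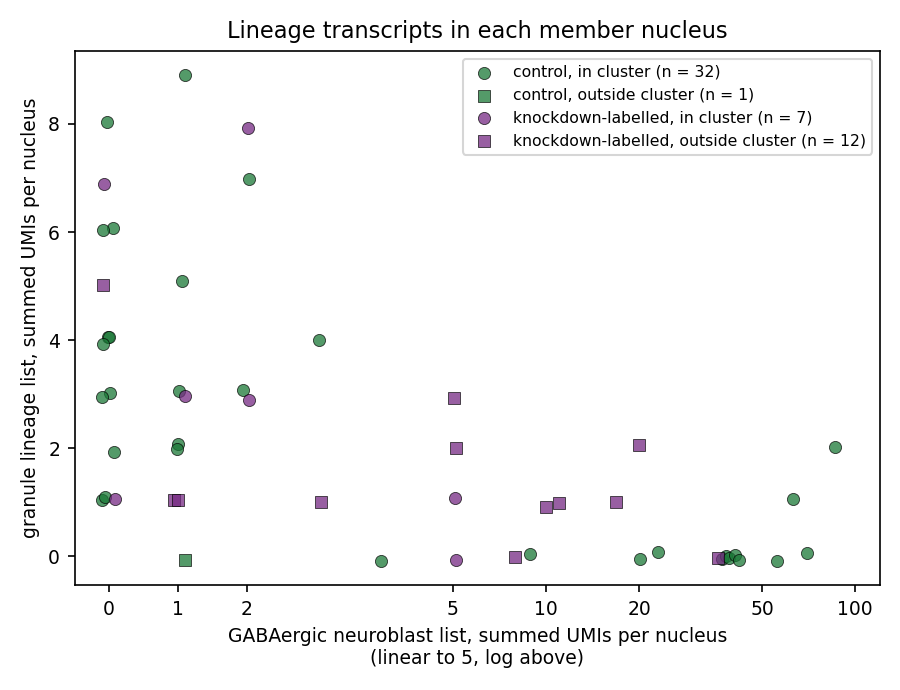
Each point is a member nucleus, placed by its summed UMIs of the GABAergic neuroblast list (horizontal axis, linear to 5 and logarithmic beyond) and of the immature granule neuron list (vertical axis, linear), with slight jitter to part equal values. Control members of the neuroblast-like cluster (green circles) lie along the 2 axes, and the 7 knockdown-labelled members of that cluster (purple circles) reach no more than 5 UMIs of the GABAergic list.

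The list genes, which the split used, are given as a description. Meis2, a homeobox factor of olfactory bulb neuroblasts, was found in 13 of 13 nuclei on the GABAergic side, with 2, 17 and 28 UMIs as the lowest, median and highest count, and in no nucleus of the granule side. Dlx1 was found in 9 of the 13, Dlx2 in 4, Sp9 in 4 and Sp8 in 2, with no UMI of these homeobox and zinc finger factors on the granule side. Gad2 was found in 9 of the 13 nuclei with 29 UMIs and in none of the 19. Gad1, which makes GABA as well, did not part the sides as sharply, with 23 UMIs in 9 nuclei of the GABAergic side and 6 UMIs in 5 of the granule side. Prox1, the factor that holds granule neuron identity, stood at 628 CPM (440 to 870) on the granule side and at 84.7 CPM (17.5 to 248) on the GABAergic side.

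Genes that were in neither list also differed between the 2 sides of the control members. Of 843 genes with at least 20 UMIs, 12.2% were at least 2-fold higher on the GABAergic side and 17.7% at least 2-fold lower, with a median log2 ratio of -0.04. Since the same nuclei gave the split and these values, they describe the 2 sets and test nothing. Among the genes higher on the GABAergic side were adhesion molecules and receptors. Nrxn3, a presynaptic adhesion molecule, had 0, 39 and 132 UMIs as the lowest, median and highest count over the 13 nuclei, and 2 UMIs in all on the granule side (log2 ratio 8.65). Erbb4, the neuregulin receptor that guides migrating interneurons, had 183 UMIs in 12 of the 13 nuclei and 6 UMIs in 4 of the 19 (log2 ratio 5.51). Robo2, a receptor for the repellent Slit proteins, had 50 UMIs in 9 nuclei and none on the granule side, which was at least 27.0-fold lower. Slit1, a ligand of that receptor, had 13 UMIs in 8 of the 13 nuclei and 1 UMI in the 19.

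Further genes of the GABAergic side were regulators of transcription and RNA. Sox2ot, the noncoding RNA that overlaps the stem cell factor Sox2, was found in 13 of 13 nuclei at 1, 14 and 57 UMIs (lowest, median and highest) and in 7 of the 19 with 8 UMIs in all. Adarb2, a brain-specific member of the RNA editing enzyme family, had 145 UMIs in 9 nuclei against 3 UMIs in 2 (log2 ratio 6.07). Foxp2, a forkhead factor of striatal and olfactory neurons, had 32 UMIs in 8 nuclei and none on the granule side, at least 17.3-fold lower. Ccnd2, the cyclin of proliferating neural progenitors, had 38 UMIs in 8 nuclei against 5 UMIs in 3 (log2 ratio 3.50). Bcl11a, a zinc finger factor, was on both sides, with 35 UMIs in 12 nuclei and 19 UMIs in 9 (log2 ratio 1.56).

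Signs of cycling were few among the members and came mostly from single nuclei. Top2a, which untangles chromosomes in dividing cells, had 25 UMIs in the control members, and 1 nucleus of the GABAergic side with 5640 UMIs held them all. The same nucleus held 14 UMIs of Cenpf and 5 each of Cenpe and Kif15, which act at mitosis. Mki67, the usual label of cycling nuclei, had 3 UMIs in 2 control members and 1 UMI in 1 knockdown-labelled member. Egfr, the growth factor receptor of transit-amplifying progenitors, had 20 UMIs in 3 control nuclei of the GABAergic side, 16 of them in 1 nucleus. It had 11 and 2 UMIs in 2 of the 7 knockdown-labelled members of the cluster, both of which fell on the GABAergic side. Gfap and Hopx, genes of radial glia-like stem cells, and Neurog2 had no UMI in the members of either library.

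Among the 149 genes at least 2-fold higher on the granule side, 7 were of the migration and guidance list and 5 of the synapse list. Dcc, the netrin receptor, was found in 19 of 19 nuclei at 3, 15 and 31 UMIs (lowest, median and highest) and in 4 of the 13 of the GABAergic side with 9 UMIs in all (log2 ratio -4.24, GABAergic over granule). In CPM Dcc stood at 5044 (4479 to 5660) against 254 (116 to 482), so the 2 sides did not overlap within counting error. Dab1, which passes on the reelin signal that places neurons in layers, had 182 UMIs in 15 nuclei against 9 UMIs in 6 (log2 ratio -3.57). Nrp1, a receptor for secreted semaphorins, had 58 UMIs in 13 of the 19 nuclei and 1 UMI in the 13. Nrp2, its relative, had 21 UMIs in 10 nuclei and none on the GABAergic side, at least 4.33-fold lower there. Plxna2, a coreceptor of the neuropilins, was found in 17 nuclei with 55 UMIs, against 6 UMIs in 6 (log2 ratio -2.40).

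Some other guidance ligands and receptors were also higher on the granule side. Sema3c, a secreted semaphorin, had 30 UMIs in 11 nuclei against 1 UMI, and Slit3, a repellent ligand, 69 UMIs in 11 nuclei against 1 UMI. Epha7, an ephrin receptor, had 18 UMIs in 9 nuclei against 1 UMI. Robo1, unlike Robo2, was higher on the granule side, with 50 UMIs in 12 nuclei against 8 UMIs in 6 (log2 ratio -1.88). Plxna4 was on both sides, with 48 UMIs in 13 nuclei and 24 UMIs in 7 (log2 ratio -0.29). Over the list of 14 migration and guidance genes with enough UMIs, 7 were at least 2-fold higher on the granule side and 2 on the GABAergic side, with a median log2 ratio of -1.38. Over all genes the shares were 17.7% and 12.2%.

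**Figure D4:**
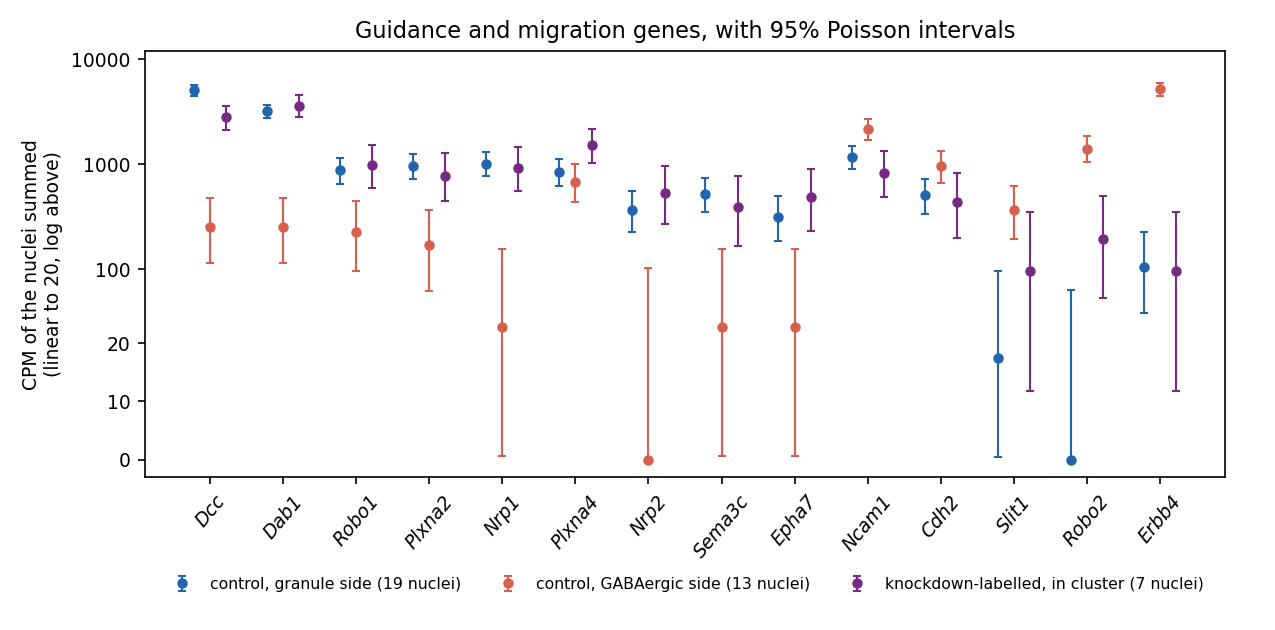
Level in CPM (logarithmic above 20) of 14 guidance and migration genes in the control members of the granule side (19 nuclei), of the GABAergic side (13 nuclei) and in the knockdown-labelled members of the neuroblast-like cluster (7 nuclei), with exact Poisson 95% intervals as bars. Dcc, Nrp1 and Plxna2 were higher on the granule side, Robo2 and Erbb4 on the GABAergic side, and the 7 knockdown-labelled nuclei overlapped the granule side for Nrp1 and Plxna2 and lay between the 2 sides for Dcc.

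The synapse list had 9 genes with enough UMIs for these 2 sides. Of them, 5 were at least 2-fold higher on the granule side and none on the GABAergic side (median log2 ratio -1.32). Over all genes these shares were 17.7% and 12.2%. Grin2b, the NMDA receptor subunit of young neurons, was found in 19 of 19 nuclei with 125 UMIs, against 27 UMIs in 10 of 13 (log2 ratio -1.50). Gria1, an AMPA receptor subunit, had 69 UMIs in 16 nuclei against 4 UMIs in 3 (log2 ratio -3.26), and Nlgn1, a postsynaptic adhesion molecule, 114 UMIs in 16 against 4 UMIs in 4 (log2 ratio -3.98). Zbtb20, a transcription factor of hippocampal identity, was found in every nucleus of both sides. Its lowest, median and highest counts on the granule side were 13, 25 and 57 UMIs, and its level there was 9390 CPM (8613 to 10217.9) against 3275 CPM (2706 to 3928). Rbfox1, a splicing factor of neurons, had 204 UMIs in 17 nuclei against 7 UMIs in 5 (log2 ratio -4.08). Ezh2, the histone methyltransferase of Polycomb, had 31 UMIs in 16 nuclei against 9 UMIs in 4 (log2 ratio -1.03).

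Several genes of immature neurons were shared by the 2 sides. Nfib, a nuclear factor I protein, had 130 UMIs on the granule side and 78 on the GABAergic side (log2 ratio -0.04), and Auts2, a regulator of cytoskeleton and transcription, 253 and 177 UMIs (log2 ratio 0.18). Dcx, a rule gene, had 23 UMIs on each side. The cytoskeleton list had 4 genes higher on the GABAergic side and none on the granule side of 12 with enough UMIs. Over all genes these shares were 12.2% and 17.7%. The median log2 ratio of the list was 0.48.

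Against the other 11339 control nuclei, the genes with the highest ratio in the control members were, after Igfbpl1 (log2 ratio 7.07) and Dlx6os1 (6.52), genes of both lineages. The rule used these nuclei, so the ratios are a description. Nol4, a nucleolar protein, was found in 29 of the 33 members with 164 UMIs, at 1702 CPM against 74.4 CPM in other nuclei (log2 ratio 4.52). Myt1l, a zinc finger factor that holds neuronal identity, was found in 31 members with 112 UMIs (log2 ratio 3.73), Nedd4l, a ubiquitin ligase, in 28 with 114 UMIs (3.84), and Sncaip, which binds synuclein, in 26 with 59 UMIs (4.01). Bcl11a was found in 21 members (log2 ratio 4.19). These genes had UMIs on both sides, whereas Meis2 (4.39), Nrxn3 (3.92) and Pbx3 (3.88) came nearly whole from the GABAergic side, and Cntnap5a (4.48), Plxna2 (4.21) and Nrp1 (3.78) mostly or nearly whole from the granule side.

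Markers of other cells were measured in the members beside these results. Slc17a7, the vesicular glutamate transporter of mature excitatory neurons, was found in 1 of 33 control members (3.03%), against 5.86% of other control nuclei. It was found in 9 of 19 knockdown-labelled members (47.4%), against 45.1% of other nuclei of that library. In the neuroblast-like cluster it was found in 1 of 32 control and 2 of 7 knockdown-labelled members. The list of 10 mature oligodendrocyte genes holds Mog and Mag, which the rule limits, so its sums in members are partly fixed. It summed to 2159 CPM in the control members against 14436.6 CPM in other control nuclei, with a UMI of all 10 genes. In the knockdown-labelled library it summed to 385 CPM against 3927 CPM, with a UMI of 9. Astrocyte genes summed to 986 and 458 CPM in the control and knockdown-labelled members, with Aqp4 and Gfap at 0 in both. Other nuclei stood at 2315 and 1947 CPM. Microglial genes summed to 353 and 120 CPM, against 1218 and 393.5 CPM in other nuclei, with Tmem119 at 0 in both sets of members. Genes of oligodendrocyte precursors summed to 311 and 289 CPM, against 1558 and 837 CPM in other nuclei. Cspg4 and Neu4 were at 0 in both sets of members, and Pdgfra was at 0 by the rule. Mature GABAergic neuron genes summed to 2719 and 867 CPM, against 889 and 1519 CPM in other nuclei. On the GABAergic side of the control members they summed to 6692 CPM. Of this list, Adarb2, Gad1 and Gad2 had 148, 29 and 29 UMIs in the control members. They had 13, 15 and 8 UMIs in the knockdown-labelled members. Pvalb, Lhx6 and Npy were at 0 in both sets of members. Their part in the results below was not tested.

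Between the libraries, 274 of 1985 genes were at least 2-fold higher in the knockdown-labelled members (13.8%) and 319 at least 2-fold lower (16.1%), with a median log2 ratio of -0.12. With the members of the neuroblast-like cluster alone, 89 of 1107 genes were higher (8.04%) and 153 lower (13.8%), with a median of 0.00, or 145 lower with genes at 0 set to their bound. Among the lists of the members' own biology, synaptic genes were higher in the whole set of knockdown-labelled members, and GABAergic neuroblast genes were lower. Of the chromatin and transcription factor list 12 of 16 genes were lower and none higher. Of the cytoskeleton list 5 of 12 were lower and none higher, and of the migration and guidance list 8 of 19 were lower and 3 higher.

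Of 15 synapse genes with enough UMIs, 9 were at least 2-fold higher in the 19 knockdown-labelled members and none lower (median log2 ratio 1.03), against 13.8% and 16.1% of all genes. In the neuroblast-like cluster 3 of 10 were higher and none lower (median 0.77), against 8.04% and 13.8% of all genes. Syt1, the calcium sensor of transmitter release, had 202 UMIs in 19 of 19 knockdown-labelled members (2432 CPM) and 69 UMIs in 21 of 33 control members (716 CPM). Other nuclei of the libraries stood at 1794 and 195 CPM, and in the clustered members the log2 ratio was 0.57. Camk2a, a kinase of mature excitatory synapses, had 46 UMIs in 12 knockdown-labelled members and 5 UMIs in 5 control members, with 8 UMIs in 2 of the 7 clustered nuclei. Grin2a, the NMDA receptor subunit that joins Grin2b as neurons mature, had 14 UMIs in 5 of the 7 clustered knockdown-labelled nuclei and 4 UMIs in 2 of the 32 clustered control nuclei. With 18 UMIs in all, Grin2a was under the minimum for a ratio, and other nuclei stood at 796 CPM in the knockdown-labelled and 83.3 CPM in the control library. Of these 7 nuclei, 6 were marked as doublets, and genes of mature excitatory neurons summed to 1222 CPM in them against 723 CPM in the 32 control nuclei. Their part in the synapse values was not tested.

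The GABAergic neuroblast list had 7 genes with enough UMIs, of which 5 were at least 2-fold lower in the knockdown-labelled members and none higher (median log2 ratio -1.61). In the neuroblast-like cluster 6 of 6 were lower (median -2.74, or -1.83 with genes at 0 set to their bound). Over all genes, 16.1% were lower in all members and 13.8% in the cluster. Meis2 had 9 UMIs in 4 of the 7 knockdown-labelled nuclei and 207 UMIs in 13 of the 32 control nuclei, at 440 CPM (201 to 835) against 2233 CPM (1939 to 2558). Gad2 had no UMI in the 7, which was at least 2.13-fold lower. Over all members, 14 of 33 control and 11 of 19 knockdown-labelled nuclei fell on the GABAergic side. In the cluster 13 of 32 control and 2 of 7 knockdown-labelled members did. The part of the split by lineage in the difference of this list was not tested. The 2 nuclei each had 5 UMIs of the list, at the low end of the control nuclei on that side. Erbb4 followed the list, with 2 UMIs in the 7 nuclei and 189 in the 32, and so did Nrxn3, with 10 UMIs in 6 nuclei against 624 (log2 ratio -3.71).

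Of the genes that stood higher on the granule side, Dcc, Prox1, Zbtb20 and Dab1 differed by less than 2-fold between the clustered members of the 2 libraries. Dcc had 0, 8 and 16 UMIs as the lowest, median and highest count over the 7 knockdown-labelled nuclei (log2 ratio -0.20 against the 32 control nuclei). Prox1 was found in 5 of the 7 with 13 UMIs (log2 ratio 0.63), and Zbtb20 in 7 of 7 with 15, 31 and 39 UMIs (log2 ratio 0.43). For Prox1 the intervals of 338 to 1086 CPM and 299 to 575 CPM overlapped. Dab1 had 74 UMIs in 6 of the 7 nuclei (log2 ratio 0.82). Others of that side passed 2-fold, with Nrp2 at a log2 ratio of 1.28 and Epha7 at 1.29, and Khdrbs2, an RNA-binding protein, at -1.23. The migration and guidance list had 2 genes at least 2-fold higher and 2 lower of 15 in the cluster (median log2 ratio 0.57). In all members 3 were higher and 8 lower of 19 (median -0.57). Over all genes, 8.04% were higher and 13.8% lower in the cluster, and 13.8% and 16.1% in all members.

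The chromatin and transcription factor list turned from a lower median to one near 0 when the 12 outside nuclei were left out. Of its 16 genes, 12 were at least 2-fold lower in all knockdown-labelled members (median log2 ratio -1.36). In the clustered members 4 were lower (median -0.06), or 3 with the gene at 0 set to its bound. The share of lower genes over all genes was 16.1% in all members and 13.8% in the clustered ones. Tcf4, a helix-loop-helix factor of immature neurons, was found in 7 of 7 clustered knockdown-labelled nuclei with 90 UMIs (log2 ratio 0.07), Nfib in 7 of 7 with 42 UMIs (-0.11) and Nfia in 7 of 7 with 31 UMIs (-0.14). Neurod1, a factor of granule neurons, had 13 UMIs in the control members and none in the knockdown-labelled members. This was at least 3.74-fold lower with the 12 outside nuclei included. In the clustered members Neurod1 had 13 UMIs in 8 of the 32 control nuclei and none in the 7 knockdown-labelled ones. The floor of 3 counts in those 7 nuclei was 146.6 CPM, and these counts were too few to give a bound there. The cytoskeleton list had 5 of 12 genes lower in all members (median -0.82) and 2 of 12 lower in the clustered ones (median -0.37). Tubb3, the tubulin of young neurons, had 33 UMIs in the clustered control nuclei and none in the 7 knockdown-labelled ones, at least 2.43-fold lower.

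Some of the genes with the highest ratios between the libraries also differed between the other nuclei. Snhg11, a noncoding RNA of neurons, had 2, 36 and 94 UMIs as the lowest, median and highest count over the 19 knockdown-labelled members and 16 UMIs in 12 of 33 control members. It was found in 99.45% of other knockdown-labelled nuclei (4765 CPM) and in 35.74% of other control nuclei (496 CPM). Of its 763 UMIs in the knockdown-labelled members, 719 lay in the 12 nuclei outside the neuroblast-like cluster. Cdh18, a cadherin of neurons, had 53 UMIs in 10 of those nuclei, none in the 7 clustered nuclei and none in control members. Kcnip4, a subunit of potassium channels, had 127 UMIs against 10 (log2 ratio 3.82), with other nuclei at 2788 and 359 CPM.

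Within the neuroblast-like cluster, among genes with at least 20 UMIs in the 7 knockdown-labelled nuclei, Snhg11 had the highest ratio (log2 ratio 3.61), and the 10 highest included genes of synapses and adhesion. Grm5, a metabotropic glutamate receptor, had 25 UMIs in 5 of the 7 nuclei (log2 ratio 2.18), Rims1, a protein of the presynaptic active zone, 21 UMIs in 5 (1.93), and Nlgn1 53 UMIs in 7 (1.03). Ntrk3, the receptor of neurotrophin-3, had 24 UMIs in 5 (log2 ratio 1.14). Among the genes with the lowest ratios were Pbx3, a partner of Meis2 (-4.31), Nrxn3 (-3.71), Sox2ot (-3.07) and Meis2 (-2.27). Those 4 were all higher on the GABAergic side of the control members.

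The series' title names BDNF and its receptor TrkB, and their genes were read in the members. Bdnf had no UMI in the members of either library, while other nuclei stood at 5.69 CPM in the control and 34.1 CPM in the knockdown-labelled library. Ntrk2, the gene of TrkB, had 25 UMIs in 14 of 33 control members (260 CPM) and 46 UMIs in 14 of 19 knockdown-labelled members (554 CPM). In the clustered nuclei the levels were 237 CPM (149 to 359) and 293 CPM (108 to 638), which overlapped. Of 8 genes of the BDNF and TrkB list with enough UMIs, 1 was at least 2-fold higher and 3 lower in all members (median log2 ratio -0.64). In the clustered ones 1 of 4 was higher and none lower (median 0.21). Over all genes, 13.8% were higher and 16.1% lower in all members, and 8.04% and 13.8% in the clustered ones.

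Bcas2's own complex was too thinly covered to compare. Prpf19 had 5 UMIs in the control members and 3 in the knockdown-labelled members, Cdc5l 9 and 4, Aqr 10 and 4, and Ctnnbl1 10 and 6. None of these genes reached 20 UMIs over both libraries. The list of neuronal splicing factors had 1 gene at least 2-fold higher and 3 lower of 17 in all members (median log2 ratio 0.03). In the clustered ones it had 3 lower of 12 (median -0.21). Over all genes, 13.8% were higher and 16.1% lower in all members, and 13.8% were lower in the clustered ones. Srrm4, which sets the splicing of neuronal microexons, had 44 UMIs in 20 control members and 15 UMIs in 11 knockdown-labelled members, with a log2 ratio of -0.05 in the clustered nuclei. Rbfox1 had 211 UMIs in 22 control members and 261 UMIs in 17 knockdown-labelled members, with a log2 ratio of 0.57 in the clustered nuclei. The p53 target list had 1 gene with enough UMIs in all members, which was lower, and none in the clustered ones.

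Genes of the next stages of the granule lineage were scarce. Calb2 (calretinin), a gene of early postmitotic granule neurons, had 3 UMIs in 3 members of each library. C1ql2, a gene of mature granule cells, had no UMI in the members of either library. Over all genes, 13.8% were higher and 16.1% lower in all members, and 13.8% were lower in the clustered ones. The immature granule list had 1 gene higher and 2 lower of 7 in all members (median log2 ratio -0.56). In the clustered ones it had 1 lower of 5 (median 0.06). That 1 gene, Sdk2, an adhesion molecule, had no UMI in the 7 nuclei and 26 in the 32, at least 1.91-fold lower, which does not reach 2-fold.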

How the data were processed

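RNA of sorted hippocampal nuclei was measured in 2 libraries. The authors deposited raw UMI counts per gene and barcode, and per the file headers the software was Cell Ranger 9.0.1. Per the submitters' processing notes, bcl2fastq 5.0.1, Seurat 4.1.0 and the GRCm39 build were used. Whether intronic reads entered the counts was not stated in the labels or headers. The tables held 55357 genes and were filtered for the range given in the report.

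UMIs were summed over the nuclei of a set and divided by the set's total, in CPM. CPM intervals are exact Poisson and shares have Clopper-Pearson intervals, at 95%, covering counting error only. 1 UMI was worth 10.4 CPM in the control members, 12.0 in the knockdown-labelled members and 48.9 in the 7 clustered ones. Ratios are log2 with 0.5 UMI added, for genes with at least 20 UMIs over both sets, and at least 2-fold counted as higher or lower. A gene with no UMI in a set is given as a bound from a floor of 3 counts. With 1 library a group no test was made. Nuclei of both libraries were scaled to 10000 UMIs, reduced to 30 components of 2000 variable genes and clustered by Leiden at resolution 1 and, for the clusters described, at resolution 2. The neuroblast-like cluster was the one with most members, and was named from the listed markers, which include the rule genes. Doublets were scored with Scrublet and kept.

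Members and gene lists were chosen with earlier results of these data known. Named genes were those of the lists, the 15 with the highest ratio of control members over other control nuclei (at least 50 UMIs and 10% of members), and the 10 highest and 10 lowest between the libraries. Further genes were the 10 highest on each lineage side (at least 30 UMIs and 15% of nuclei), and in the cluster the 10 highest with at least 20 UMIs in at least 2 of the 7 knockdown-labelled nuclei and the 10 lowest with at least 50 UMIs in the control nuclei. Predicted genes were counted and not named. Taking the sides from the summed lists, and the cluster at resolution 2, were choices made after the data were seen, and Plxna4, Bcl11a, Auts2 and Egfr among the sides' genes were named as list members or after their values were seen. Alternatives covered the marker number, UMI range, depth, doublets, shared barcodes, scaling (TMM, edgeR 4.0.16 in R 4.3.3) and the gene filter. Clustering used leidenalg 0.10.2 and scanpy 1.11.5, with pandas 2.3.3, scipy 1.17.1 and numpy 2.4.6 under Python 3.11.15, and set sums were tested on simulated data. No genome of the files' build was used, so no coordinates are given. Some genes of the lists are not reported here.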

Additional observations from a re-analysis of the deposited data

How the results depend on the processing

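Members were 0.288% of knockdown-labelled and 0.290% of control nuclei. With 2 of 5 genes required the shares were 1.47% and 0.607%, with 4 of 5 they were 0.0152% and 0.123%, and with Dcx left out 0.0455% and 0.149%. With nuclei marked as doublets removed they were 0.203% and 0.318%. With every nucleus thinned to 800 UMIs they were 0% and 0.0440%, and 0% and 0.0399% when the upper limit was also dropped. With no upper limit alone, the knockdown-labelled share was 0.745%. In the cluster with most members it was 0.0910% at resolution 1 and 0.106% at resolution 2. Dlx6os1 was in 0% of the knockdown-labelled members with 4 of 5 genes (1 nucleus) or without Dcx (3 nuclei), and Eomes in 0% of the thinned control members (5 nuclei). No knockdown-labelled member was left after thinning, so no such share exists there. Of genes between the libraries, 87 were higher and 82 lower of 543 with at least 50 UMIs, and 3725 higher and 4386 lower of 14308 with at least 1 UMI. In the cluster they were 87 and 156 of 1045 at resolution 1, and 89 and 153 of 1107 at resolution 2. Under TMM they were 296 and 290, and by mean CPM 280 and 281. The medians of 4 lists changed sign: migration and guidance from -0.57 to 0.47 and 0.57 in the cluster at resolutions 1 and 2, BDNF and TrkB from -0.64 to 0.26 and 0.21, the immature granule list from -0.56 to 0.01 with at least 1 UMI and 0.06 at resolution 2, and the splicing list from 0.03 to -0.15 with at least 1 UMI and -0.16 and -0.21 in the cluster. The cause was not tested. The other 6 kept their sign, and those that moved in the cluster were the neuroblast markers (-0.42 at resolution 1, -0.67 at resolution 2), the chromatin list (-0.05, -0.06) and, at resolution 2, the GABAergic list (-2.74). No paired analysis was possible because each group is 1 library. At this depth a single UMI in the 7 clustered nuclei is 48.9 CPM, which limits every gene with few counts.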

Other observations

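Other genes of the members fell in no comparison above. Sox2, a stem cell factor, had 6 UMIs in 4 control members and 8 UMIs in 6 knockdown-labelled members, and Slc1a3, a glutamate transporter of glia and radial glia-like cells, 26 UMIs in 12 and 2 UMIs in 1. Fgfr1, a receptor of fibroblast growth factors, had 38 UMIs in 16 of the 19 control nuclei on the granule side and none on the GABAergic side, at least 7.83-fold lower there, and 16 UMIs in 5 of the 7 clustered knockdown-labelled nuclei. Mctp1, a calcium-binding membrane protein, had 69 UMIs in 13 nuclei of the granule side and none on the other, at least 14.2-fold lower. Prox1 and Meis2, genes of the 2 lineages, were found together in 2 control members and in 3 knockdown-labelled members, 2 of them in the neuroblast-like cluster. Xist was found in 17 control members and Y-linked genes without Xist in 9, against 13 and 5 in the knockdown-labelled members.

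The excitability list holds chloride transporters and GABA receptor subunits. It had 3 genes at least 2-fold higher and 1 lower of 8 in the knockdown-labelled members (median log2 ratio 0.28). In the clustered ones it had 2 higher of 7 (median 0.44). Over all genes, 13.8% were higher and 16.1% lower in all members, and 8.04% were higher in the clustered ones. Medium spiny neuron genes summed to 166 CPM in the control members and 325 CPM in the knockdown-labelled members. CA pyramidal genes summed to 467 and 1023 CPM, and genes of mature dentate granule cells to 1318 and 891 CPM. In the clustered members the 3 lists, in the same order, stood at 173 and 97.8, 475 and 635, and 1316 and 1613 CPM. Over the other nuclei the last list stood at 2507 and 1845 CPM.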
